A study of Mus musculus with 20 samples.

Results

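The 38 genes described here encode the folding machinery of the endoplasmic reticulum (ER) and the factors of the unfolded protein response. They were taken by symbol from a list of ER chaperones, disulfide isomerases, ER-associated degradation genes and response factors, out of 24419 genes counted. All 38 passed edgeR's filter on low counts, among 14411 genes that did. Messenger RNA came from dissociated hippocampal cultures of C57BL6 mouse embryos (embryonic day 18, tissue pooled from 4 embryos). The cultures had received 4 µM cytosine arabinoside, which kills dividing cells, on days 3 to 6, and were used on day 10 in vitro. After a wash in imaging medium at room temperature, each culture got a pulse of 2 min and then 90 min at 37 °C in its earlier medium before lysis. The 4 groups had 5 libraries each. The TPA group received 50 µM glutamate with 10 µM tris(2-pyridylmethyl)amine, a zinc chelator also present for 1 min beforehand. The zinc group received 50 µM glutamate with 10 µM ZnCl2, the glutamate group 50 µM glutamate, and the control group imaging medium alone. No library received zinc or TPA without glutamate. Nothing says whether the 5 replicates came from separate dissociations, so the p-values reflect how these libraries spread, which may be technical.

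Library totals ran from 28692470 to 40934630 counts. The neuronal label fitted the data: 10 neuron markers summed to 7503 to 8766 CPM (counts scaled to the library total with TMM factors) in each library. Markers of 8 astrocyte genes summed to 739.6 to 956 CPM and those of 6 interneuron genes to 1044 to 1390 CPM, while the oligodendrocyte lineage, microglia and endothelial lists reached at most 30.8 CPM and the globin genes Hbb-bs, Hbb-bt, Hba-a1 and Hba-a2 were at 0 in all 20 libraries. In such bulk samples, fewer cells of a type and less RNA per cell cannot be told apart.

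Proteins that enter the secretory pathway are threaded into the ER by the Sec61 translocon, glycosylated by the oligosaccharyltransferase, and folded by luminal chaperones and disulfide isomerases, and those that fail are returned to the cytosol for destruction (ER-associated degradation). When unfolded proteins build up, 3 sensors in the ER membrane respond: ATF6, IRE1 (the product of Ern1, which splices Xbp1 mRNA) and PERK (the product of Eif2ak3, which acts through ATF4). The transcription factors ATF6 and XBP1 raise chaperone genes through short promoter elements, of which the ER stress response element (ERSE) is the best known. Neurons draw on this machinery for the receptors, channels and secreted peptides they make in large amounts.

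RefSeq promoter windows (GRCm38.p6, 250 bases before to 50 after the gene start) were at hand for 30 of the 38 genes; Hyou1, Manf, Atf6, Derl1, Sec61a1, Ssr2, Ostc and Selk were not matched. The ERSE, spelled CCAAT, then 9 bases of any kind, then CCACG, was searched on both strands and found in 9 of these 30 genes, against 37 of 27025 genes in the whole table (0.1369%). The shorter ERSE-II, spelled ATTGG, then 1 base of any kind, then CCACG, was found in 2 of the 30 (Herpud1 and, 7 bases after the start, Dnajb11) and in 12 of all genes (0.0444%). The TGACGTGG core of the unfolded protein response element stood in 2 of the 30 (Txndc5 and Txndc11) and in 193 of all genes (0.7142%). The 38 genes were listed as ER chaperones and response genes, so a share above that of all genes is no independent result. Within the 30 genes, no match of one motif overlapped a match of another. The windows below show the ERSE of the genes whose values the results turn on, with the ERSE-II of Herpud1 for comparison; each is written 5′ to 3′ on the strand of the gene, with 20 bases on either side of the matched element, which is in capitals.
Hspa5: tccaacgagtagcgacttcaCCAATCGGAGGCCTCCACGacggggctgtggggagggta
Hsp90b1 distal: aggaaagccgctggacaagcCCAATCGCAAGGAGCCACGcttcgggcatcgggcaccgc
Hsp90b1 proximal: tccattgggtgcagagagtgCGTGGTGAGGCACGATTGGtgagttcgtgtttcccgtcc
Calr: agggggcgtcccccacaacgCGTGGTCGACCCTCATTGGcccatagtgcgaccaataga
Canx: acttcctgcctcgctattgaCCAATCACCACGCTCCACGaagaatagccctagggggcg
Creld2: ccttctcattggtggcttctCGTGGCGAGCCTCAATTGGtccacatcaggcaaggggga
Derl3: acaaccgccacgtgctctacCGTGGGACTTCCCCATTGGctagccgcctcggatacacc
Herpud1: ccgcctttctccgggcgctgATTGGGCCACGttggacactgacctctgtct

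The Hspa5 element lies at chr2:34772025-34772043 on the plus strand, from 65 to 47 bases before the gene start. Hsp90b1, on the minus strand, was the 1 window among all genes with 2 such elements, at chr10:86705638-86705656 in the same orientation as the gene and at chr10:86705533-86705551 in the opposite one. Elements in the gene's own orientation begin with CCAAT, as in Hspa5 and Canx (chr11:50325800-50325818, minus strand). Those of Calr (chr8:84847075-84847093, minus strand), Creld2 (chr15:88819520-88819538, plus strand) and Derl3 (chr10:75893242-75893260, plus strand) read the opposite way and begin with CGTGG. The ERSE-II of Herpud1 lies at chr8:94386377-94386387 on the plus strand. Pdia6, Dnajc3 and Syvn1 also held an ERSE. A match is a description of letters, not a measured binding site.

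**Figure D1:**
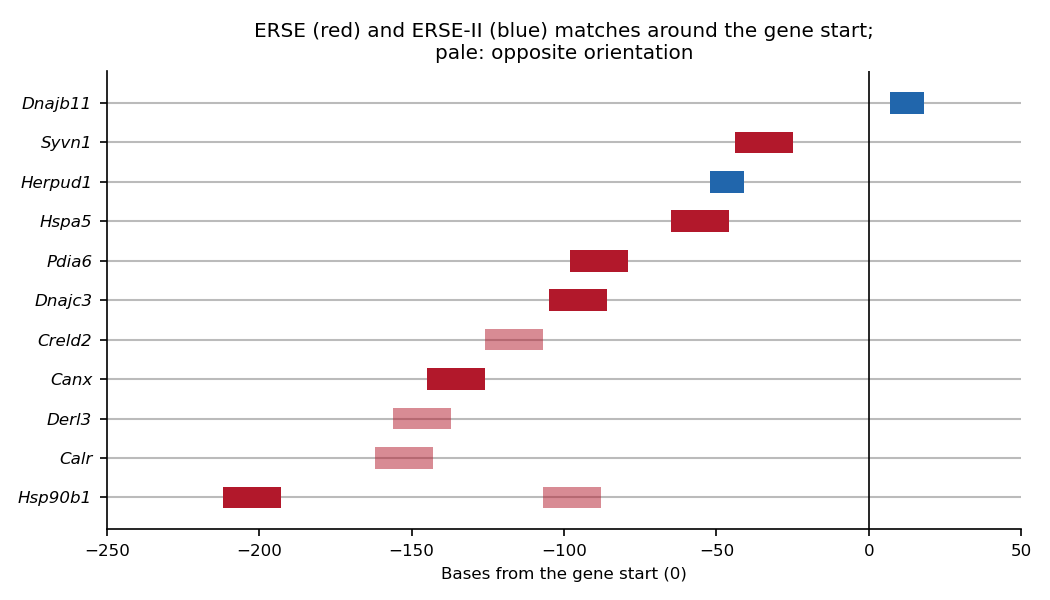
Position of ERSE (red) and ERSE-II (blue) matches in the promoter windows of 11 genes, in bases from the gene start (x axis); pale bars are matches in the opposite orientation to the gene. Only the ERSE-II of Dnajb11 lies after the start, and Hsp90b1 has 2 elements.

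Levels per length spanned more than 2 orders of magnitude among the 38 genes. Averaged over the 20 libraries in the authors' TPM, which divides by gene length, Hspa5, the HSP70 chaperone of the ER lumen known as BiP (chr2:34772090-34776529, plus strand, mm10), was the most abundant at 716 TPM. Calr and Canx, the lectins calreticulin and calnexin that hold glycoproteins during folding, had 655 and 379 TPM, and Hsp90b1, the HSP90 of the ER known as GRP94 (chr10:86690841-86705444, minus strand), had 522 TPM. The main disulfide isomerases followed, with Pdia3 at 361, P4hb at 217 and Pdia6 at 185 TPM, and the prolyl isomerase Ppib at 337 TPM. Translocon and oligosaccharyltransferase genes lay between 54.7 (Ssr1) and 258 TPM (Ssr2). The sensors were far lower, with Atf6 at 25.5 and Ern1 at 2.92 TPM, whereas Xbp1, the transcription factor that IRE1 activates, had 141 TPM. Derl3, a derlin of ER-associated degradation that is typical of secretory cells, was the lowest at 1.66 TPM and had as few as 12 counts in a library.

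The widest separation was between the TPA and zinc groups, and it ran one way: all 38 genes were lower with TPA than with zinc. The median log2 fold change was -0.17 and the range -0.68 to -0.010, beside a median of -0.0011 over all genes tested, of which 50.3% were lower. None of the 38 passed the edgeR quasi-likelihood test at a Benjamini-Hochberg adjusted p under 0.05, where 0.139% of all genes were called lower and 0.361% higher. Of the 38, 29 were lower at an unadjusted p under 0.05, against 7.81% of all genes, and none was higher, against 8.44%. The 38 genes varied together from library to library, with 74.1% of their variance inside groups on the first principal component. So numbers of genes, here and in the other comparisons, do not stand for separate observations. DESeq2 on the same counts called 10 of the 38, all lower, among 456 genes of 12069. The luminal chaperones and cofactors had the widest difference (9 of 9 lower at an unadjusted p under 0.05, median -0.33), ahead of the lectins (2 of 2, median -0.17), the translocon and oligosaccharyltransferase genes (5 of 6, median -0.16), the disulfide isomerases (4 of 6, median -0.14), ER-associated degradation (4 of 8, median -0.14) and the sensors and transcription factors (2 of 4, median -0.13).

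Hsp90b1 came closest to the threshold. It measured 469.5, 437, 434, 417 and 394 CPM in TPA libraries 1 to 5, against 564, 619, 569, 492 and 463 CPM in zinc libraries 1 to 5 (log2 fold change -0.33, SE 0.078, edgeR adjusted p = 0.053). Only TPA library 1 exceeded the lowest zinc library, number 5. Pdia4, an isomerase with 3 thioredoxin-like active sites (chr6:47796141-47813512, minus strand), measured 48.5, 45.8, 44.6, 43.8 and 41.5 CPM with TPA and 60.8, 67.8, 56.6, 54.5 and 44.0 CPM with zinc (log2 fold change -0.34, SE 0.088, edgeR adjusted p = 0.0683). Here too the overlap came from zinc library 5, which lay below 3 TPA libraries. Dnajb9, an HSP40 partner of BiP, measured 41.8, 42.7, 41.8, 40.1 and 34.2 CPM with TPA and 59.7, 66.2, 62.6, 38.5 and 46.0 CPM with zinc (log2 fold change -0.45, SE 0.12, edgeR adjusted p = 0.0728), and zinc library 4 was the one inside the TPA range. Pdia3, the isomerase that works with calnexin and calreticulin (chr2:121413902-121438686, plus strand), was the 1 gene of the 38 whose groups did not overlap, where 1.14% of all genes were lower and 1.98% higher without overlap: 314, 297, 313, 304 and 293 CPM with TPA against 345, 359.8, 339, 315 and 316 CPM with zinc (log2 fold change -0.14, SE 0.038, edgeR adjusted p = 0.0771).

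Hspa5 measured 631, 577, 556, 522 and 475 CPM with TPA and 797, 889, 737, 628 and 497 CPM with zinc. In all, 3 zinc libraries exceeded every TPA library and the others lay within the TPA range. Its log2 fold change was -0.36 (SE 0.13, 95% interval -0.63 to -0.094, edgeR adjusted p = 0.164). Creld2, a secreted ER stress protein with EGF-like repeats (chr15:88819646-88826681, plus strand), measured 11.3, 11.6, 10.5, 11.2 and 9.73 CPM with TPA and 15.9, 16.1, 14.7, 12.9 and 8.86 CPM with zinc (log2 fold change -0.34, SE 0.13, edgeR adjusted p = 0.205). Its 4 highest zinc libraries lay above all TPA libraries, and zinc library 5 lay below them all. Sdf2l1, a cofactor of the BiP cycle, had one of the widest fold changes (log2 fold change -0.63, SE 0.20, edgeR adjusted p = 0.125), with 11.4, 11.1, 10.3, 8.93 and 8.18 CPM with TPA and 17.2, 22.1, 17.4, 11.9 and 8.34 CPM with zinc. Derl3 had the widest (log2 fold change -0.68, SE 0.25, edgeR adjusted p = 0.167) at 0.598 ± 0.0679 CPM with TPA and 0.950 ± 0.342 CPM with zinc (SD, n = 5 each), on few counts.

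Among the transcription factors and sensors, Xbp1 (chr11:5520641-5525993, plus strand) measured 106, 105, 101, 94.9 and 93.2 CPM with TPA and 116, 122, 115, 109 and 105 CPM with zinc (log2 fold change -0.18, SE 0.049, edgeR adjusted p = 0.081). Its groups overlapped only through TPA library 1 and zinc library 5. Gene counts do not tell spliced from unspliced Xbp1. Atf6 (chr1:170704457-170867771, minus strand) measured 53.1, 64.8, 58.4, 60.8 and 56.9 CPM with TPA and 67.9, 75.6, 68.3, 62.2 and 57.7 CPM with zinc (log2 fold change -0.18, SE 0.079, edgeR adjusted p = 0.265). Ern1 (chr11:106397620-106487796, minus strand) measured 3.57, 3.90, 3.43, 3.75 and 4.05 CPM with TPA and 3.62, 3.73, 3.69, 3.98 and 4.34 CPM with zinc, groups that overlapped almost wholly (log2 fold change -0.051, SE 0.081, edgeR adjusted p = 0.802, 95% interval -0.22 to 0.12). Creb3, a membrane-bound factor cleaved in the Golgi, was at 50.0 ± 4.35 CPM with TPA and 52.8 ± 5.92 CPM with zinc (SD, n = 5 each). The 2 smallest differences belonged to ER-associated degradation, Edem1, a mannosidase-like selector of misfolded glycoproteins (log2 fold change -0.010, 95% interval -0.11 to 0.091), and Syvn1, the ubiquitin ligase HRD1 (log2 fold change -0.012, 95% interval -0.13 to 0.10).

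The count of called genes in this comparison depended on single libraries. Without zinc library 5 it was 14 of 38, among 264 of 14497 genes called. Without zinc library 4 it was 13, but among 895 of 14492 genes, and without TPA library 1 it was 2, among 123 of 14463 genes. Without any other single library of these groups it was 0, where 7 to 41 genes were called. The 3 libraries farthest from their group means over all genes tested were glutamate 5, glutamate 4 and zinc 5. Without them, a choice made after the data were seen, 24 of the 38 genes fell with TPA, among 1196 genes called of 14550. The 6 interneuron markers summed to 1157 to 1361 CPM with TPA and 1146 to 1336 CPM with zinc, and the 10 neuron markers to 7826 to 8304 CPM with TPA and 7503 to 8766 CPM with zinc. Their part in the difference was not tested.

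**Figure D2:**
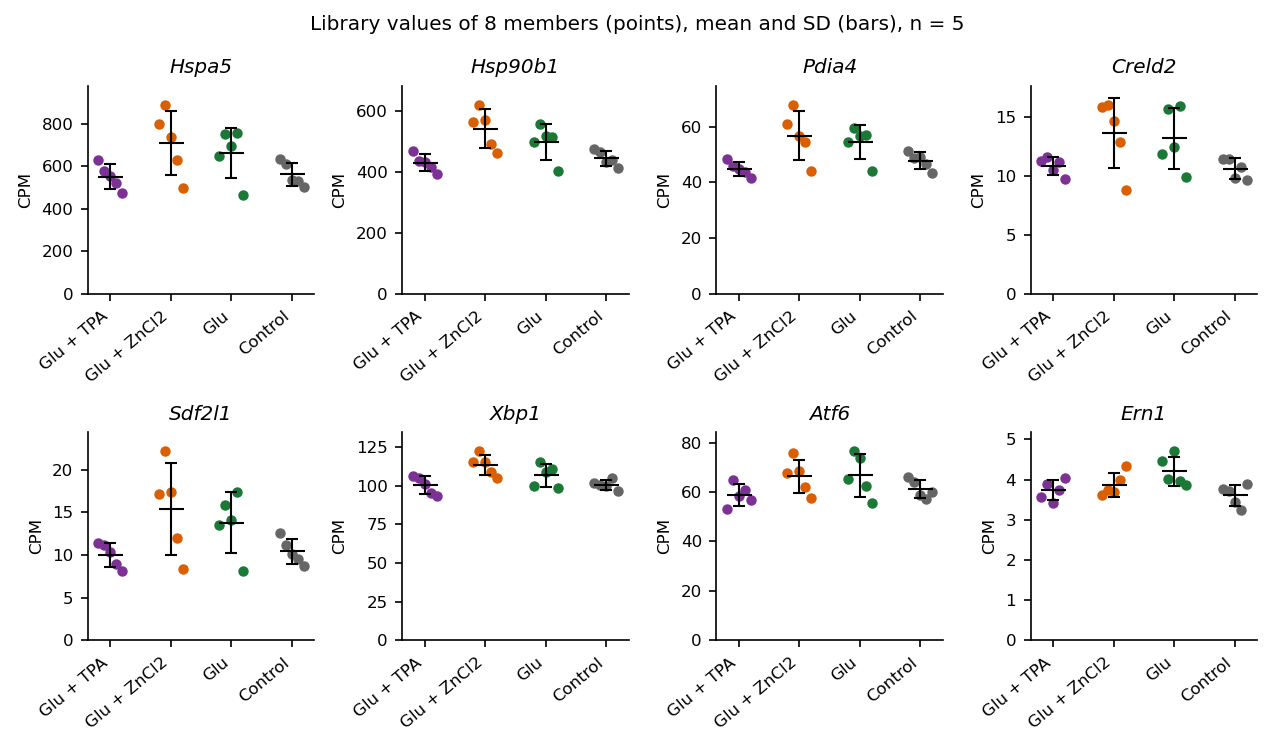
CPM of 8 genes (y axes, from 0) in every library of the 4 groups (x axis); points are libraries in order of replicate number, bars are mean and SD, n = 5. For Hspa5 the zinc libraries reach 889 CPM, while the TPA libraries stay at or below 631 CPM.

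The TPA group was also lower than glutamate alone for each of the 38 genes, with a median log2 fold change of -0.10 beside 0.0025 over all genes, of which 48.7% were lower. This comparison shares its TPA libraries with the one above and its glutamate libraries with glutamate against control. None of the 38 passed the adjusted threshold in edgeR, as with all genes (0.0% called in either direction), and none in DESeq2. At an unadjusted p under 0.05, 12 were lower, against 4.11% of all genes, and none was higher, against 3.19%. The 12 included 8 of the 9 luminal chaperones and cofactors, whose median was -0.27, with Hspa5 just outside. None of the 38 had groups without overlap, where 0.527% of all genes were lower and 0.5% higher. Pdia4 had the smallest p, at 48.5, 45.8, 44.6, 43.8 and 41.5 CPM with TPA against 54.5, 59.6, 56.7, 57.0 and 44.1 CPM with glutamate alone (log2 fold change -0.28, SE 0.088, edgeR adjusted p = 0.615). Only glutamate library 5 lay inside the TPA range.

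Sec61a1, the pore subunit of the translocon (chr6:88503607-88518800, minus strand), measured 199.9, 195, 199, 193 and 181 CPM with TPA and 215, 224, 229.8, 211 and 198 CPM with glutamate (log2 fold change -0.15, SE 0.051, edgeR adjusted p = 0.642). Hyou1, a large HSP70-like chaperone of the ER (chr9:44379490-44392369, plus strand), measured 195, 201, 187, 187 and 174 CPM with TPA and 235, 252, 245, 229.6 and 176 CPM with glutamate (log2 fold change -0.27, SE 0.094, edgeR adjusted p = 0.642). In both genes the other glutamate libraries stood above every TPA library and glutamate library 5 did not. Hspa5 was at 552 ± 58.7 CPM with TPA and 664 ± 118 CPM with glutamate (SD, n = 5 per group; log2 fold change -0.27, SE 0.13, edgeR adjusted p = 0.68), and Hsp90b1 at 430.3 ± 27.7 and 498 ± 58.3 CPM in the same order of groups (log2 fold change -0.21, SE 0.078, edgeR adjusted p = 0.644). For Creld2 the log2 fold change was -0.28 (SE 0.13), for Atf6 -0.18 (SE 0.078), for Ern1 -0.17 (SE 0.080) and for Xbp1 -0.090 (SE 0.049). Without the 3 farthest libraries 10 of the 38 genes passed the adjusted threshold, among 600 genes called of 14550.

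Glutamate alone was compared with control to ask what the brief pulse did to these genes by itself. All 38 were higher after glutamate (median log2 fold change 0.088, range 0.013 to 0.41), beside a median of -0.0020 over all genes, of which 48.9% were higher and 51.1% lower. None passed the adjusted threshold in edgeR, where 0.0347% of all genes were called higher and 0.00694% lower, or in DESeq2. At an unadjusted p under 0.05, 7 were higher, against 3.16% of all genes, and none was lower, against 1.88%. The luminal chaperones and cofactors again had the widest differences (median 0.20, 4 of 9 at an unadjusted p under 0.05). No gene of the 38 had groups without overlap, where 0.527% of all genes were higher and 0.458% lower. The 10 neuron markers summed to 7532 to 8199 CPM with glutamate and 7683 to 8218 CPM in control, and their part in the differences was not tested.

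Sec61a1 had the smallest p in this comparison, at 215, 224, 229.8, 211 and 198 CPM with glutamate against 200.4, 202, 200.2, 189 and 182 CPM in control (log2 fold change 0.15, SE 0.051, edgeR adjusted p = 0.909). Ern1 measured 4.46, 4.02, 4.70, 3.97 and 3.86 CPM with glutamate and 3.77, 3.72, 3.43, 3.25 and 3.88 CPM in control (log2 fold change 0.22, SE 0.080, edgeR adjusted p = 0.939), and only control library 5 lay inside the glutamate range. Dnajc3, a BiP cochaperone also called P58IPK (chr14:118937932-118981702, plus strand), measured 61.6, 67.2, 65.2, 58.2 and 49.3 CPM with glutamate and 56.0, 57.1, 48.5, 51.3 and 50.3 CPM in control (log2 fold change 0.20, SE 0.081, edgeR adjusted p = 0.939). Glutamate library 5 was again the low one. Hspa5 measured 649, 753, 695, 755 and 467 CPM with glutamate and 633, 609, 537, 529 and 504 CPM in control, where 4 glutamate libraries exceeded all control libraries and glutamate library 5 was below them all (log2 fold change 0.24, SE 0.13, edgeR adjusted p = 0.939). Creld2 had a log2 fold change of 0.31 (SE 0.13), Pdia4 0.19 (SE 0.087), Hsp90b1 0.16 (SE 0.077), Atf6 0.12 (SE 0.078) and Xbp1 0.083 (SE 0.049). Without the 3 farthest libraries 3 of the 38 genes rose after glutamate, among 119 genes called of 14550.

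Glutamate with zinc against control gave 37 genes higher and 1, Edem1, lower, with a median log2 fold change of 0.14 beside 0.0016 over all genes, of which 50.7% were higher. It shares its control libraries with the comparison above and its zinc libraries with TPA against zinc. No gene of the 38 passed the adjusted threshold in edgeR, where 0.0278% of all genes were called in each direction, or in DESeq2. At an unadjusted p under 0.05, 22 were higher, against 5.41% of all genes, and none was lower, against 5.81%. These 22 held all 9 luminal chaperones and cofactors (median 0.29), both lectins, 4 of 6 disulfide isomerases and Xbp1. Hsp90b1 had the smallest p, at 564, 619, 569, 492 and 463 CPM with zinc against 475, 464, 433, 437 and 413 CPM in control (log2 fold change 0.29, SE 0.078, edgeR adjusted p = 0.199). Zinc library 5 alone lay inside the control range.

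Calr measured 448, 458, 462, 464 and 428 CPM with zinc and 409, 417, 409, 412 and 398 CPM in control (log2 fold change 0.14, SE 0.047, edgeR adjusted p = 0.292), and it was the 1 gene of the 38 with no overlap, where 1.31% of all genes were higher and 1.35% lower without overlap. Xbp1 measured 116, 122, 115, 109 and 105 CPM with zinc and 101, 100.2, 99.97, 105 and 96.3 CPM in control (log2 fold change 0.17, SE 0.049, edgeR adjusted p = 0.221). Manf, a secreted survival factor of the ER (chr9:106887415-106891938, minus strand), measured 79.1, 87.6, 85.6, 76.1 and 64.1 CPM with zinc and 68.4, 70.9, 66.6, 65.8 and 63.4 CPM in control (log2 fold change 0.23, SE 0.073, edgeR adjusted p = 0.279), and Pdia3 345, 359.8, 339, 315 and 316 CPM with zinc and 302, 317, 309, 304 and 301 CPM in control (log2 fold change 0.13, SE 0.038, edgeR adjusted p = 0.252). In Manf the low library was zinc 5; in Pdia3 zinc libraries 4 and 5 were below the highest control library. Hspa5 had a log2 fold change of 0.34 (SE 0.13), Creld2 0.37 (SE 0.13) and Pdia4 0.25 (SE 0.087). For Atf6 it was 0.12 (SE 0.078) and for Ern1 0.098 (SE 0.080). Without zinc library 4 the count of called genes was 1, among 95 of 14492 genes, against 8 of 14411 with all libraries. Without the 3 farthest libraries 15 of the 38 rose, among 274 genes called of 14550.

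TPA with glutamate against control gave the median closest to 0 of the 6 comparisons. Of the 38 genes 6 were higher and 32 lower, with a median log2 fold change of -0.023 and a range of -0.093 to 0.047. Without TPA library 5 the median was 0.0010. None passed the adjusted threshold in edgeR, where 0.0694% of all genes were called higher and 0.0% lower, or in DESeq2. None was below an unadjusted p of 0.05 in either direction, against 1.82% of all genes higher and 1.35% lower, and none had groups without overlap, against 0.742% higher and 0.59% lower. Hspa5 measured 631, 577, 556, 522 and 475 CPM with TPA and 633, 609, 537, 529 and 504 CPM in control, ranges that overlapped almost wholly (log2 fold change -0.027, 95% interval -0.30 to 0.24). For Hsp90b1 the interval was -0.21 to 0.11, for Pdia4 -0.27 to 0.090, for Creld2 -0.25 to 0.31, for Xbp1 -0.11 to 0.095, for Atf6 -0.22 to 0.10 and for Ern1 -0.12 to 0.22. The smallest p values belonged to Canx (log2 fold change -0.070, SE 0.050), Txndc11, a thioredoxin-domain protein (-0.066, SE 0.053), Ssr3, a subunit of the translocon-associated protein complex (-0.082, SE 0.070), and Pdia4 (-0.092, SE 0.088).

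Adding zinc to glutamate gave 32 genes higher and 6 lower than glutamate alone, with a median log2 fold change of 0.057 beside 0.00065 over all genes, of which 50.3% were higher. Leaving out zinc library 2 turned the sign of the median, to -0.0011, and without glutamate library 5 it was 0.0052. None passed the adjusted threshold in edgeR, where 0.0% of all genes were called in either direction, or in DESeq2, and 1 was higher at an unadjusted p under 0.05, against 2.73% of all genes, while none was lower, against 3.4%. The 1 gene was Selk, a selenoprotein of the ER membrane, at 115, 118, 116, 101 and 105 CPM with zinc and 100.5, 106, 95.6, 112 and 98.3 CPM with glutamate (log2 fold change 0.12, SE 0.047, edgeR adjusted p = 0.746). No gene of the 38 had groups without overlap, where 0.368% of all genes were higher and 0.333% lower. Calr had a log2 fold change of 0.082 (SE 0.047), Pdia3 0.065 (SE 0.038) and Xbp1 0.089 (SE 0.049). The 95% interval was -0.17 to 0.37 for Hspa5, -0.039 to 0.28 for Hsp90b1, -0.12 to 0.24 for Pdia4, -0.22 to 0.33 for Creld2, -0.17 to 0.16 for Atf6 and -0.28 to 0.045 for Ern1. Ern1 was the gene of the 38 with the most negative fold change here, at 3.87 ± 0.294 CPM with zinc and 4.20 ± 0.359 CPM with glutamate (SD, n = 5 each).

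**Figure D3:**
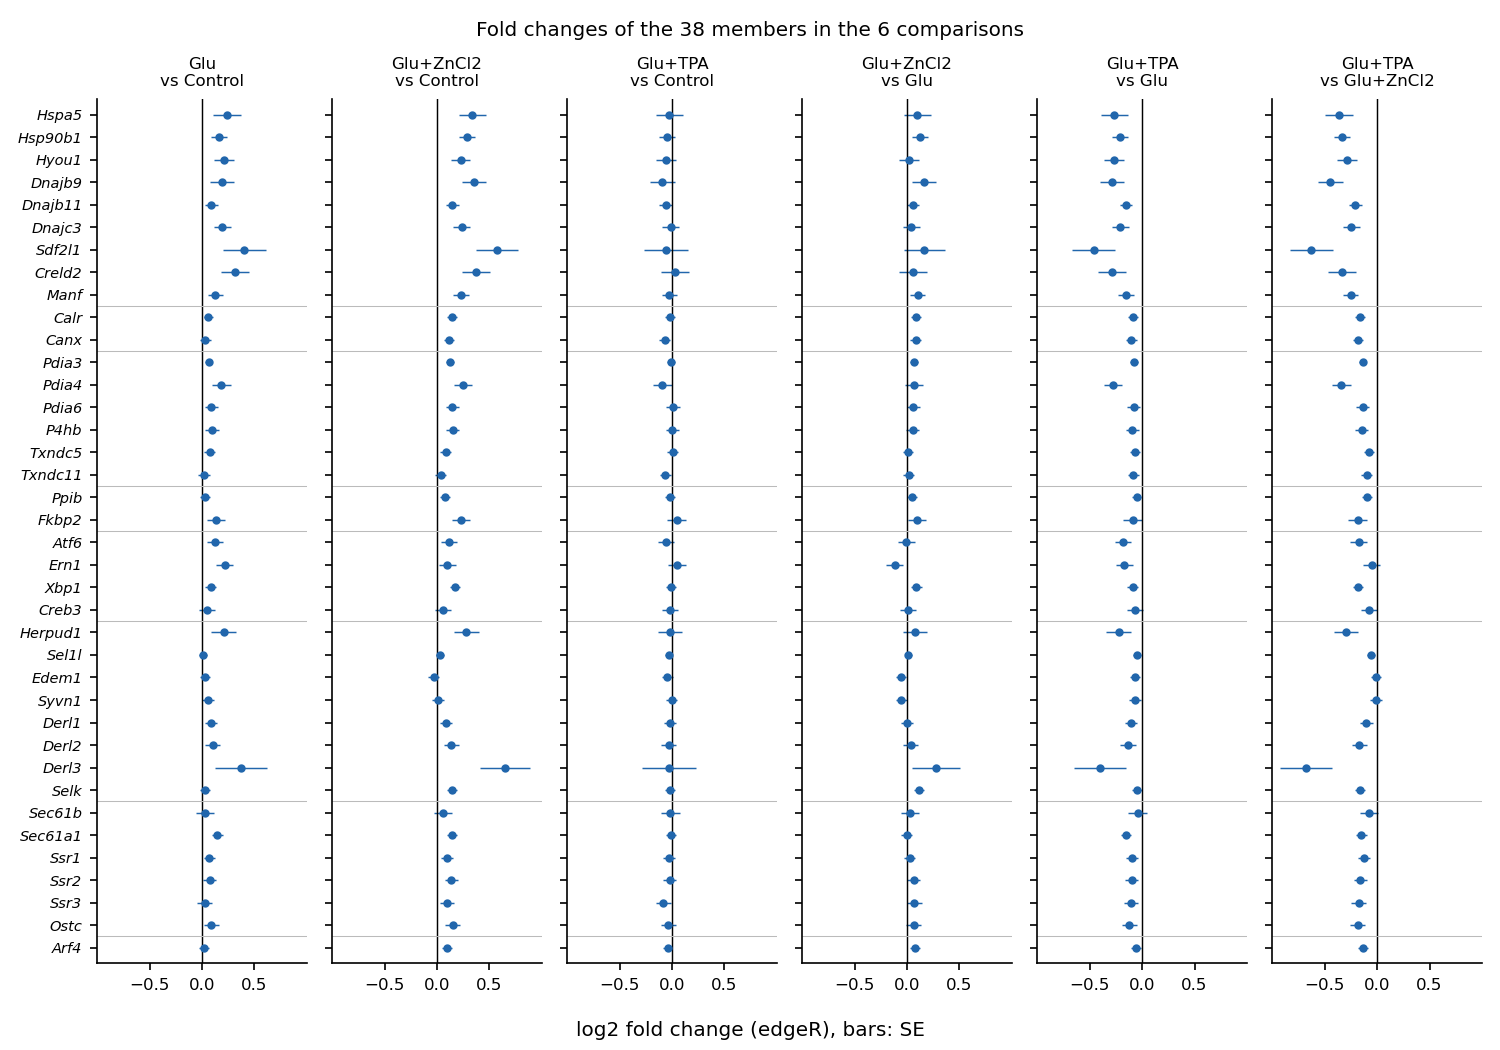
Log2 fold changes (x axes) of the 38 genes (rows, grouped by role and divided by lines) in the 6 comparisons; points are edgeR estimates and bars are SE. The points sit left of 0 throughout in both comparisons of TPA with another glutamate group, and between -0.093 and 0.047 in TPA against control.

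In TPA against zinc the remaining genes had smaller differences than Sdf2l1 and Derl3. Among the translocon and glycosylation genes, Ssr1, Ssr2, Ssr3 and Ostc, a subunit of the oligosaccharyltransferase, had log2 fold changes of -0.18 to -0.12, and Sec61b, the small translocon subunit, -0.075 (SE 0.088). In ER-associated degradation, Herpud1, a membrane protein that organises the retrotranslocation complex, had -0.30 (SE 0.12), Derl2 -0.17 (SE 0.073), Derl1 -0.10 (SE 0.059) and the adaptor Sel1l -0.059 (SE 0.037). The isomerases P4hb and Pdia6 had -0.15 and -0.14, and Txndc5 and Txndc11 -0.077 and -0.10. For the prolyl isomerases Fkbp2 and Ppib the values were -0.19 and -0.10, and for Arf4, a small GTPase of vesicle transport, -0.14 (SE 0.047). The HSP40 cochaperone Dnajb11 had -0.21 and Hyou1 -0.29. Pdia6, Txndc11, Ppib, Creb3, Syvn1 and Derl2 overlap an annotated gene on the opposite strand, and Pdia4 overlaps Mir704 on its own strand. The sources used here do not say if reads were assigned by strand or how reads in a shared stretch were counted. Counts of these genes may therefore hold reads of their neighbours or lack reads of their own.

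The 38 genes varied together from library to library, also inside a group. As the mean over genes of log2 CPM minus the gene's mean, their level was -0.032, -0.058, -0.073, -0.11 and -0.18 in TPA libraries 1 to 5. It was 0.17, 0.27, 0.16, 0.0086 and -0.10 in the zinc libraries, 0.034, 0.16, 0.094, 0.12 and -0.15 in the glutamate libraries, and -0.0053, -0.0076, -0.077, -0.082 and -0.14 in the control libraries. The library numbered 5 was the lowest of its group in each case. It held the lowest value of its group for 24 of the 38 genes with TPA, 27 with zinc, 31 with glutamate and 21 in control, where the same library was lowest for 21.0%, 27.5%, 23.6% and 18.1% of all genes tested. Zinc library 2 was the highest of its group for 31 of the 38, and for 19.1% of all genes tested. The first principal component of the 38 genes held 74.1% of their variance after group means were subtracted, against 20.8% for all genes.

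**Figure D4:**
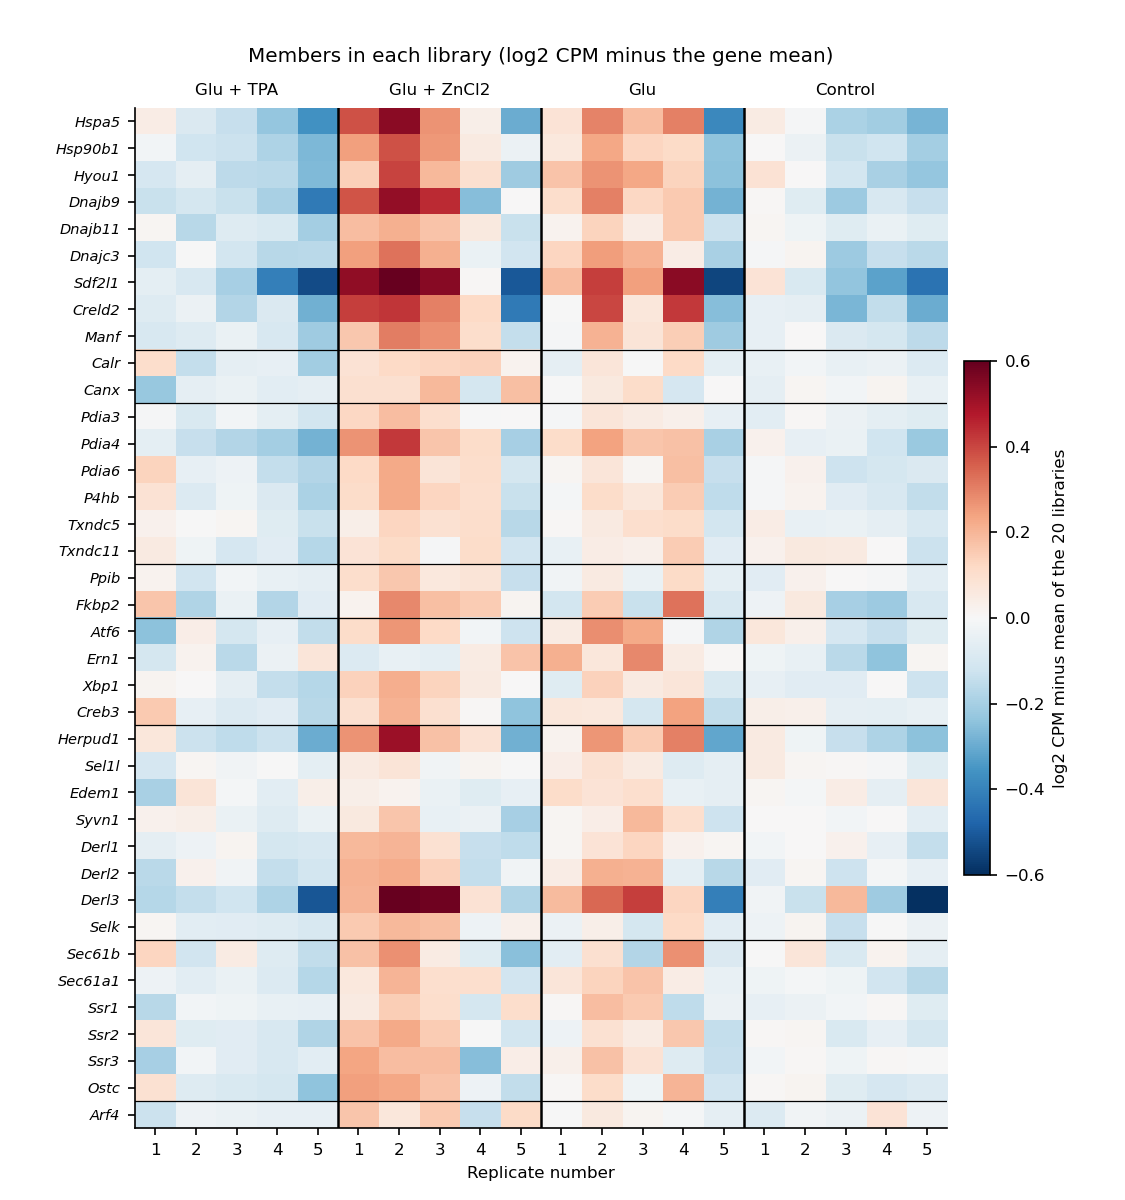
Log2 CPM of the 38 genes (rows, by role) in the 20 libraries (columns, replicates 1 to 5 of each group), as the difference from the gene's mean over all libraries (colour, log2). The columns numbered 5 are mostly blue in each group, as are TPA libraries 2 to 4 and control libraries 3 and 4. Zinc libraries 1 to 3 and glutamate libraries 2 to 4 are mostly red.

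With group means subtracted, 35 of the other 37 genes had a positive correlation with Hspa5 over the 20 libraries (median Pearson r 0.82), where 49.7% of all genes did. At an adjusted p under 0.05 (permutation test within groups, 100000 permutations, Benjamini-Hochberg over 14410 genes), 27 of the 37 were called positive and none negative, against 8.55% positive and 7.41% negative over all genes. With Spearman's rho 25 of the 37 were called positive, against 978 of 14410 genes. For 20 of the 37, r was above 0.8, against 3.62% of all genes. A permutation p of 1e-05 was the smallest these permutations can give. The genes closest to Hspa5 were Sdf2l1 (Pearson r = 0.98, Spearman rho = 0.95, permutation p = 1e-05, adjusted p = 0.000624), Herpud1 (Pearson r = 0.98, Spearman rho = 0.97, permutation p = 1e-05, adjusted p = 0.000624), Hsp90b1 (r = 0.97) and Pdia4 (r = 0.97). All 8 other luminal chaperones and cofactors and all 6 disulfide isomerases were called. Among all 703 pairs of the 38 genes, r had a median of 0.63, ran from -0.65 to 0.98 and was positive in 607.

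Of the 10 genes that were not called, Ern1 (Pearson r = -0.25, Spearman rho = -0.20, permutation p = 0.349, adjusted p = 0.573) and Canx (Pearson r = -0.12, Spearman rho = -0.09, permutation p = 0.72, adjusted p = 0.853) were the 2 with a negative coefficient. Arf4 (r = 0.14), Ssr1 (r = 0.14) and Edem1 (r = 0.14) were also near 0. Canx holds an ERSE, printed above, as does Calr, whose r was 0.60. The relation rested in part on 2 libraries: glutamate 5 and zinc 5 deviated most in Hspa5 (-0.49 and -0.48 on the log2 scale). Without them 16 of the 37 genes were called positive, among 304 of 14410 genes called positive, and the median r was 0.69. For Sdf2l1 r was then 0.96, for Herpud1 0.95, for Hsp90b1 0.95, for Pdia4 0.92, for Xbp1 0.77 and for Atf6 0.45.

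**Figure D5:**
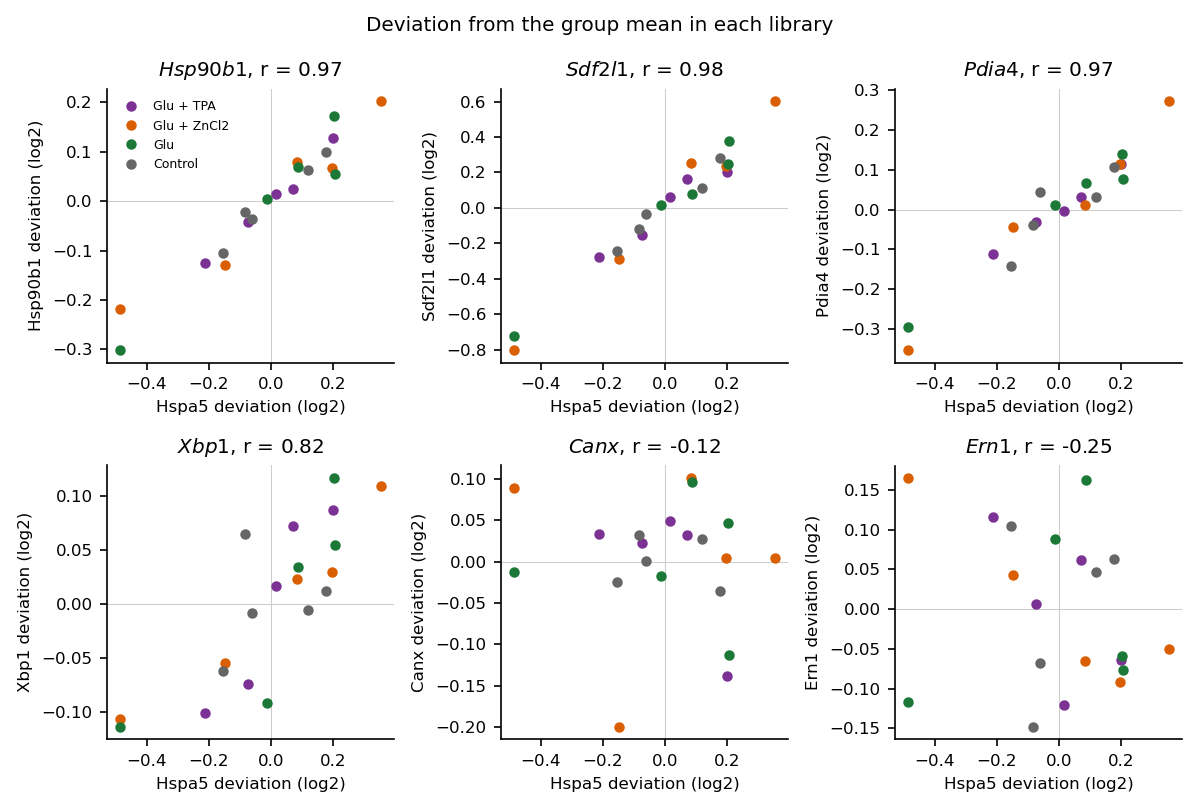
Deviation from the group mean (log2 CPM) of 6 genes (y axes) against that of Hspa5 (x axes) in 20 libraries, coloured by group, with Pearson r. Hsp90b1, Sdf2l1 and Pdia4 follow Hspa5 closely (r = 0.97, 0.98 and 0.97), Canx and Ern1 do not (r = -0.12 and -0.25), and the 2 points at the far left are zinc 5 and glutamate 5.

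Markers of cell types also varied with Hspa5 across the libraries. Of 6 interneuron markers, 4 were called positive, Gad1 with r = 0.85 and Slc32a1 with r = 0.90. Of 10 neuron markers, 2 were called negative, with Rbfox3 at r = -0.94, and of 8 astrocyte markers 1, Aqp4, at r = -0.82. Without the 2 libraries farthest in Hspa5, 2 interneuron markers were still called, Gad1 and Slc32a1, Rbfox3 kept its call (permutation test, adjusted p = 0.0279) and Aqp4 did not (adjusted p = 0.108). Over all 20 libraries the median r was -0.59 for the 10 neuron markers, 1 of them positive. It was -0.51 for the 8 astrocyte markers, none positive, and 0.78 for the 6 interneuron markers, 5 of them positive. The summed interneuron markers were 1361, 1292, 1218, 1208 and 1157 CPM in TPA libraries 1 to 5. They were 1336, 1292, 1258, 1199 and 1146 CPM in the zinc libraries. With glutamate they were 1325, 1298, 1260, 1390 and 1044 CPM, and in control 1337, 1351, 1243, 1237 and 1284 CPM. The summed neuron markers were highest in zinc 5 (8766 CPM). The part of these markers in the shared variation of the 38 genes was not tested.

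Genes with and without an ERSE were set side by side, among the 30 with a promoter window. Those without an ERSE included Herpud1 and Dnajb11, which hold an ERSE-II, and Txndc5 and Txndc11, which hold the TGACGTGG core. In TPA against zinc the 9 genes with it had a median log2 fold change of -0.25 and the 21 without it -0.14. In glutamate against control the medians were 0.16 with and 0.072 without, and in zinc against control 0.24 with and 0.098 without. The ranges overlapped widely: in TPA against zinc they were -0.68 to -0.012 with an ERSE and -0.63 to -0.010 without. The median r with Hspa5 was 0.86 for the other 8 genes with an ERSE and 0.77 for the 21 without.

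The third branch of the response, through PERK and ATF4, has no member among the 38, and 14 of its 15 listed genes were tested. In TPA against zinc 13 of these were lower (median log2 fold change -0.16), 6 of them at an unadjusted p under 0.05, and none passed the adjusted threshold in edgeR. Ddit3, which encodes CHOP, was at 15.3 ± 1.87 CPM with TPA and 21.8 ± 5.80 CPM with zinc (SD, n = 5 per group; log2 fold change -0.51, SE 0.16, edgeR adjusted p = 0.12). Ppp1r15a, the phosphatase subunit GADD34 that restores translation, was at 52.4 ± 7.12 CPM with TPA and 71.6 ± 19.5 CPM with zinc (log2 fold change -0.45, SE 0.17, edgeR adjusted p = 0.191). In glutamate against control 13 of the 14 were higher (median 0.12), none at an unadjusted p under 0.05. Of the 14, 11 were called positively correlated with Hspa5 (median r 0.89), Ppp1r15a at r = 0.99, Ddit3 at 0.97 and Atf4 at 0.97, and 9 without the 2 libraries farthest in Hspa5.

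Other ER genes outside the 38 had medians closer to 0, a difference that was not tested. In TPA against zinc, 28 of 35 other ER chaperones and folding enzymes were lower (median -0.058), 19 of 22 other ER-associated degradation genes (median -0.050), 27 of 29 other translocon, signal peptidase and oligosaccharyltransferase genes (median -0.085) and 25 of 29 genes of ER to Golgi transport (median -0.057). At an unadjusted p under 0.05 these lists held 7, 5, 8 and 8 lower genes, and the first held 1 higher gene. Srp72, a subunit of the signal recognition particle, was the 1 gene of them past the adjusted threshold: it fell to 161 ± 3.88 CPM with TPA, against 178 ± 6.60 CPM with zinc (SD, n = 5 per group; log2 fold change -0.15, SE 0.033, edgeR adjusted p = 0.0464). Of 10 other stress transducers and their processing proteases 6 were lower (median -0.015), none of them at an unadjusted p under 0.05, where 1 was higher. Of 17 cytosolic heat shock genes 14 were lower (median -0.059), 3 at an unadjusted p under 0.05 with 1 higher, and their median r with Hspa5 was -0.097 with 2 called positive.

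In the authors' deposited DESeq2 tables, whose fold change runs from zinc over TPA, all 38 genes were higher with zinc and 10 had an adjusted p under 0.05, against 1.34% of 12069 genes called higher. For 1 of the 38 the table gave no adjusted p. The 10 were Hsp90b1, Dnajb9, Dnajb11, Manf, Calr, Canx, Pdia3, Pdia4, Xbp1 and Selk. The smallest adjusted p in the authors' deposited table was 0.00596 for Hsp90b1, with a log2 fold change of 0.23 (SE 0.055). The median over the 38 genes was 0.12 there, where edgeR gave -0.17 for TPA over zinc. Sizes of fold change should therefore not be compared between the deposited table and edgeR. In the other 5 of the authors' deposited tables none of the 38 was under 0.05, where the called shares ran up to 0.162% higher and 0.399% lower (zinc over control). For glutamate over control the authors' deposited table called 0.0396% of genes higher and 0.0149% lower.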

How the data were processed

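Polyadenylated RNA of 20 cultures was made into stranded libraries, per the labels' protocols. Reads were handled on mm10 with Trimmomatic (0.36), HISAT2 (2.1.0) and SAMtools (1.3.1), and genes with featureCounts and, in R (3.3.0), DESeq2 (1.14.1), tools named in the submitters' processing notes without their order. The authors deposited whole-number gene counts, TPM (counts per gene length, rescaled per library), and DESeq2 tables of their comparisons, from which the log2 fold change and its adjusted p-value were used here.

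Counts of 14411 genes kept by filterByExpr (99.98% of all counts) were scaled by TMM and fitted with edgeR 4.0.16's quasi-likelihood model (R 4.3.3) over all 20 libraries and 4 group means, with Benjamini-Hochberg adjustment at 0.05 over all genes tested. SE is the absolute log2 fold change over the square root of F. CPM used the TMM factors, and log2 CPM a prior count of 2. In the smallest library 3 counts are 0.105 CPM, in the largest 0.0733 CPM, which covers counting error only. No 2 libraries of a group agreed within sampling noise. The scripts were tested on simulated data. With simulated counts for TPA against zinc, edgeR recovered 6% of genes changed 1.1-fold and 68% of those changed 1.25-fold. For glutamate against control it recovered 6% and 62%, so small differences would mostly not be called. The correlation test was tried on simulated normal values, not counts. It recovered 96% of the planted genes, and 7.69% of its calls were false. Promoter letters were searched in RefSeq windows with Python 3.11.15; protein sequences were not used here.

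The 38 genes, the gene lists and the tests were chosen with earlier results of these data known. The genes named in each comparison were Hspa5, Hsp90b1, Pdia4, Creld2, Xbp1, Atf6, Ern1 and the 4 with the smallest p; other genes named with values were chosen after their values were seen.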

Additional observations from a re-analysis of the deposited data

Results flagged for a closer look

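Each of the 38 genes was examined in each of the 4 groups on the log2 CPM scale. A library was flagged if its gap to its nearest neighbour exceeded 0.71 of the group's range (Dixon's 95% value for 5 samples). Of 152 sets examined 8 held such a library, and chance gives about 1 in 20. The low library was number 5 in 4 of them. Hyou1 had 176.0 CPM in glutamate library 5, with the next library at 229.6 CPM. Dnajb9 had 34.22 CPM in TPA library 5, next to 40.08 CPM. Derl3, on few counts, had 0.478 CPM in TPA library 5, next to 0.6134 CPM. Syvn1 had 67.84 CPM in control library 5, next to 70.06 CPM. The other 4 were in TPA library 1. There Canx was lowest at 460.7 CPM, next to 515.2 CPM, Ssr1 at 150.3 CPM, next to 163.0 CPM, and Arf4 at 205.9 CPM, next to 217.5 CPM. Selk was highest there at 103.5 CPM, next to 98.37 CPM.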

How the results depend on the processing

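In TPA against zinc the count of called genes was 0 of 38 as reported (72 of 14411 genes) and 1 with a minimum mean of 1 CPM (84 of 12520), 10 with DESeq2 (456 of 12069), 14 with the replicate number as a block, all lower (397 of 14411), 0 to 14 when a library was left out (7 to 895 genes), and 24 without the 3 farthest libraries (1196 of 14550). In zinc against control it was 1 with the replicate block (38 genes, against 8 as reported), 0 to 1 when a library was left out (3 to 95 genes), and 15 without the 3 farthest libraries (274 genes); these 3 also gave 3 in glutamate against control and 10 in TPA against glutamate. For the correlation with Hspa5, 27 genes (2300 of 14410 genes in either direction) became 16 without the 2 libraries farthest in Hspa5 (574) and 17 without the 3 farthest (701). The causes were not tested. The labels do not say what a replicate number marks, and pairing by number was not established. Same-numbered libraries correlated at -0.070 to 0.50, 11 of 30 pairs were above 0.1, and 9 of 20 libraries were closest to their own number. All 6 pairs numbered 5 correlated positively, at 0.040 to 0.50, as did the 6 numbered 2, at 0.035 to 0.23. Among pairs numbered 1, 3 and 4 both signs occurred (medians 0.083, -0.0029 and -0.0081). In the other 4 comparisons the replicate block changed no count of the 38 genes. In every setting tried, each median fold change shifted by less than the pooled SD of the library level of the 38 genes. That SD was larger than the median itself in glutamate against control (0.094), zinc against glutamate (0.13) and TPA against control (0.056). In these comparisons a median could change sign and still stay within it. Left-out libraries gave -0.19 to -0.14 in TPA against zinc, -0.14 to -0.088 in TPA against glutamate, 0.065 to 0.13 in glutamate against control, 0.11 to 0.17 in zinc against control, -0.037 to 0.0010 in TPA against control and -0.0011 to 0.096 in zinc against glutamate. Signs of single genes near 0 turned. Atf6 in zinc against glutamate was 0.0019 with a minimum mean of 1 CPM and -0.070 to 0.043 with a library left out. In that comparison left-out libraries gave -0.0091 to 0.20 for Hspa5, -0.014 to 0.14 for Pdia4 and -0.035 to 0.17 for Creld2. In TPA against control they gave -0.078 to 0.023 for Hspa5, -0.028 to 0.017 for Xbp1 and -0.0038 to 0.067 for Creld2. The effect of depth was not tested; the lowest counts in a library were 12 for Derl3 and 110 for Ern1.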

Other observations

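Early response genes mark the glutamate stimulus itself. Against control, all 8 listed were higher with glutamate (median log2 fold change 0.71, 4 called in edgeR), zinc (0.49, 2) and TPA (0.93, 6). Of 14411 genes tested, 5, 4 and 10 were called higher in the same order of groups. In TPA against zinc the early response genes had the opposite sign to the ER genes. All 8 listed were higher with TPA (median log2 fold change 0.33) and 2 rose, Klf4, a zinc-finger transcription factor, at 2.29 ± 0.138 CPM with TPA and 1.22 ± 0.304 CPM with zinc (SD, n = 5 per group; log2 fold change 0.91, SE 0.17, edgeR adjusted p = 0.0216), and Egr1 at 55.8 ± 4.80 CPM with TPA and 40.4 ± 4.07 CPM with zinc (log2 fold change 0.47, SE 0.11, edgeR adjusted p = 0.0464). Within groups, 2 of the 8 were called positively correlated with Hspa5, Nr4a1 (r = 0.95, 0.86 without the 2 libraries farthest in Hspa5) and Fos (r = 0.81, 0.58 without them). Sec23b, a coat protein of vesicles that leave the ER, had r = 0.98 with Hspa5 and was at 53.2 ± 3.65 CPM with TPA and 62.4 ± 10.5 CPM with zinc (log2 fold change -0.23, SE 0.092, edgeR adjusted p = 0.211).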
